A study of Mus musculus with 15 samples.

Results

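The immediate early genes Arc, Npas4, Homer1, Nptx2, Rgs2, Ptgs2, Plk2, Plk3, Inhba and Nrn1 were examined in the mouse hippocampus during the extinction of contextual fear. Every probe whose gene name in the array files equals 1 of these 10 symbols was taken, which gave 14 of the 41174 probes and 10 of the 27962 gene names on the array. Arc, Npas4, Nptx2, Plk2, Plk3, Inhba and Nrn1 had 1 probe each, Rgs2 and Ptgs2 had 2, and Homer1 had 3. All 14 probes were well above background and none was saturated on any of the 15 arrays, so no member was lost to the filter on dim probes.

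Hippocampal total RNA of male mice of the inbred strain C57BL/6J was labelled with Cy3 and hybridised to 1-colour Agilent 60-base oligonucleotide arrays. E1 mice (n = 5) had been shocked in a conditioning box and were sampled 1 h after their first return to it without shock, and ELF mice (n = 5) were sampled 1 h after the return on which freezing had fallen, which was trial 5 of a series spaced 24 h apart. The control mice (n = 5) never received the shock. The design text says that they were placed in the same box, whereas their sample names call them naive, and the time from their last handling to sampling and the age of the mice are not given in the labels, so a difference from control covers both the shock history and the recent trial. The labels call the 5 samples of each group biological replicates.

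Immediate early genes are transcribed within minutes of strong synaptic input, without new protein synthesis, and their RNAs are short-lived. Some encode transcription factors, such as NPAS4. Others encode proteins that act directly at the synapse, on receptor trafficking, scaffolds, kinases or secreted signals. In the hippocampus, Arc and Npas4 RNA are widely used to mark neurons that were active in a recent learning episode.

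Values are log2 intensities relative to the 75th percentile of the same array, and a difference of 1 is a 2-fold change. The 75th percentile lay between an intensity of 1441 and 2932, and 82.0% to 95.3% of an array's spots exceeded background clearly. Pairs of arrays correlated at 0.951 to 0.997 across genes. All 10 hippocampal neuron markers were well above background on all 15 arrays, with a summed intensity of 90.1 to 108 times the 75th percentile in the control arrays, 88.4 to 127 in E1 arrays and 83.7 to 99.4 in ELF arrays. Markers of brain endothelium were all detected too, and their sum ranged from 17.4 to 29.2 among controls, 12.6 to 16.9 among E1 and 12.3 to 16.1 among ELF arrays. Of these 12 endothelial markers, limma called 2 lower in E1 and 7 lower in ELF against control, beside 14 and 173 of all 26117 genes. Only 0 of the 12 were above 0 in E1 and 1 in ELF, with medians of -0.43 and -0.73. The choroid plexus sum ranged from 36.1 to 56.3 among controls, 28.2 to 48.7 among E1 and 2.59 to 31.9 among ELF arrays. Of the 7 measured markers, 0 were called by limma. In ELF against control all 7 were below 0, with a median of -1.27. Of these, 6 had an unadjusted limma p under 0.05, against 23% of all genes. Of 8 thalamus and habenula markers, 1, Ramp3, was called and rose in E1 (0.86). The largest E1 difference of the 8 in size was 1.29, and 3 had an unadjusted p under 0.05, against 13.1% of all genes. The part of these differences in the results on the early genes was not tested. The arrays lay on 4 slides that do not balance the groups: 4 control arrays shared slide 1, the remaining control array was on slide 2 with 3 E1 arrays, the other 2 E1 arrays were on slide 3 with 2 ELF arrays, and 3 ELF arrays shared slide 4.

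Of the 10 genes, Arc alone passed the test between E1 and control, where it was 2.24-fold higher. None passed between ELF and control or between ELF and E1. All 10 differences between E1 and control were above 0, against 58.8% of all genes. They ran from 0.02 for Homer1, read at its 3′ probe, which may miss the short activity-induced form, to 1.16 for Arc. Those of Homer1 and Plk2 turned negative when arrays were aligned on their medians. That of Rgs2 did so with another background correction and that of Inhba with slide as a block. At an unadjusted limma p under 0.05 there were 4 of 10 (Arc, Npas4, Nptx2 and Nrn1), against 13.1% of all genes. The 10 had a median of 0.23 on the log2 scale, against 0.04 over all 26117 genes tested. The 10 genes were chosen with earlier results of these data known, so these shares and medians are not an independent test. Across all genes, 0.188% were called between E1 and control with limma at a Benjamini-Hochberg adjusted p under 0.05, and 0.134% were called higher.

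**Figure D1:**
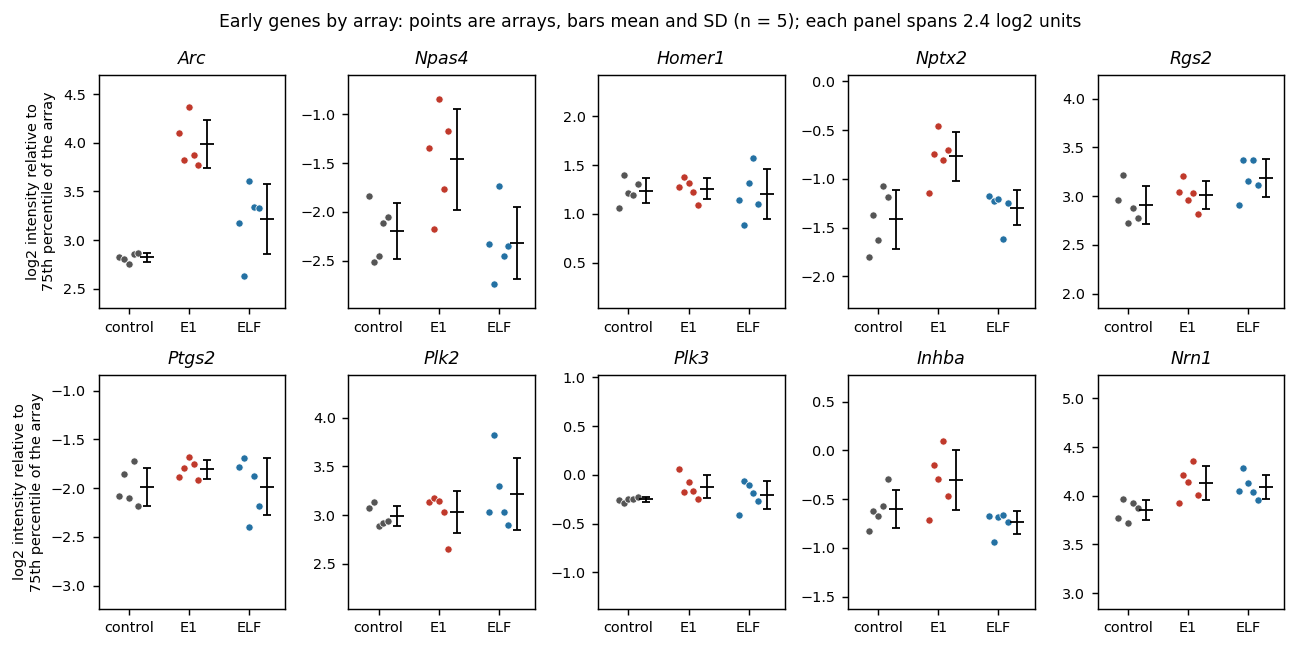
Log2 intensity relative to the 75th percentile of the array (y axis) for the 10 genes in control, E1 and ELF (x axis). Points are single arrays, bars are the mean and SD (n = 5), and every panel spans the same number of log2 units. The E1 points of Arc, between 3.78 and 4.36, lie above every control and ELF point, whereas all groups overlap for the other genes except Nptx2, whose ELF points lie below its E1 points.

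Arc (probe A_51_P503494, chromosome 15, 74749717 to 74749776, minus strand, build mm7) encodes a capsid-forming protein of dendrites that promotes the endocytosis of AMPA receptors. In control replicates 1 to 5, Arc stood at 2.82, 2.81, 2.76, 2.86 and 2.87. In E1 it stood at 4.10, 3.83, 4.36, 3.87 and 3.78. In ELF it stood at 3.18, 2.64, 3.61, 3.34 and 3.33. Every E1 array was above every control and every ELF array. In ELF, 4 arrays were above all controls, while ELF replicate 2 was below all of them. The group means were 2.82 ± 0.04 in control, 3.99 ± 0.24 in E1 and 3.22 ± 0.36 in ELF (SD, n = 5). Arc was thus spread over a narrow range among control mice and over a wider one among ELF mice.

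Arc rose by 1.16 in E1 against control (SE 0.157, limma adjusted p = 0.0097). Arrays that did not overlap, with all E1 above all control, were found for 2.11% of all genes. The ELF mean of Arc was 0.40 above control (limma adjusted p = 0.156) and 0.77 below E1 (limma, difference -0.77, adjusted p = 0.209), so neither difference passed over all genes. All ELF arrays below all E1 arrays, as for Arc, were found for 0.955% of all genes. With slide as a fixed block the ELF mean of Arc was 0.88 above control (limma adjusted p = 0.140) and with slide as a random block 0.56 above it. No slide held both ELF and control arrays. The fixed-block value is therefore reached through the E1 arrays and rests on the 1 control array of slide 2. With that block the median of ELF against control over all genes was -0.22. Because whole hippocampus was measured, a change in the number of cells that express Arc and a change in RNA per cell cannot be told apart.

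With slide entered as a fixed block, Arc differed by 1.23 between E1 and control (limma adjusted p = 0.504). With slide as a random block it was 1.13 (limma adjusted p = 0.161), so the size of the rise was kept but not the call. On slide 2, the only slide with both groups, the 3 E1 arrays averaged 4.10 and the single control array was at 2.87. On slide 3 the 2 ELF arrays averaged 3.47 and the 2 E1 arrays 3.83, a difference of -0.35 against -0.77 over all slides. The median difference over all genes was -0.04 within slide 2 and -0.18 within slide 3. When each of the 10 arrays of the comparison was left out in turn, Arc passed in 10 of 10 fits, with adjusted p between 0.00172 and 0.0473.

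Npas4 (probe A_51_P433810, chromosome 19, 4879639 to 4879698, minus strand, build mm7) encodes a neuronal transcription factor that is induced by calcium entry and regulates inhibitory synapses. Its control values were -1.84, -2.52, -2.45, -2.11 and -2.05. Its E1 values were -1.35, -2.18, -0.84, -1.76 and -1.17. Its ELF values were -2.33, -2.74, -1.73, -2.45 and -2.35. In E1, 4 arrays were above all 5 controls and replicate 2 was within them, while ELF and control lay over each other. The difference was 0.73 between E1 and control (SE 0.240, limma adjusted p = 0.194), -0.13 between ELF and control (adjusted p = 0.775) and -0.86 between ELF and E1 (adjusted p = 0.306). Its ELF to E1 difference was the most negative of the 10 genes, and its E1 to control difference was second to that of Arc. Within slide 2 the E1 arrays were 0.59 above the control array, and within slide 3 the ELF arrays were 0.62 below the E1 arrays (difference -0.62). Over all genes the medians within these slides were -0.04 and -0.18.

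The RefSeq promoter table of GRCm38.p6 matched 7 of the 10 genes in 8 windows of 250 bases before to 50 bases after a transcription start. The core of the cAMP response element, TGACG, was searched on both strands because the transcription factor CREB is a well-known regulator of early genes. It was found for 6 of 7 genes (Npas4, Homer1, Plk2, Plk3, Rgs2 and Ptgs2) and 6 of 8 windows, against 20.81% of all 32851 windows in the table. The palindrome TGACGTCA, which holds TGACG on both strands, was found for Plk2 only, against 1.79% of windows. The serum response element CArG box and the AP-1 letters TGANTCA were found in none of the 8 windows, against 1.63% and 7.81% of all, and TATAAA was found for Inhba only, against 13.6%. The 250 bases before the starts of Npas4 and Plk2 are shown because Npas4 had the second largest E1 difference of the 10 genes and Plk2 one of the smallest, although both windows hold the motif; capitals mark TGACG or its reverse complement.
Npas4, chr19:4989972-4990221, minus strand: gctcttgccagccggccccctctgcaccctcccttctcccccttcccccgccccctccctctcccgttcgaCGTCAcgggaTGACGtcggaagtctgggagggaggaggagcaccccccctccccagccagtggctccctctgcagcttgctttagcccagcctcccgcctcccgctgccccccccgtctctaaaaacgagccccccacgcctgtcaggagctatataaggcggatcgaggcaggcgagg
Plk2, chr13:110394794-110395043, plus strand: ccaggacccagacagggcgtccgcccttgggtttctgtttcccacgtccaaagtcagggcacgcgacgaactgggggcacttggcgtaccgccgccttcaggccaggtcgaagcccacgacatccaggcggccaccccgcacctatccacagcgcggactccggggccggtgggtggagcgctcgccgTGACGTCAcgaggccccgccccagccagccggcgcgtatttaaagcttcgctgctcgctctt
In Npas4 the matches begin 179 bases before the start on the minus strand and 169 bases before it on the plus strand. In Plk2 they begin 62 and 59 bases before the start, and together make the palindrome. Another Plk2 match, on the minus strand, begins at base 22 counted from the start and lies outside the printed bases. A match is a description of letters and not of binding.

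Nptx2 and Inhba encode secreted proteins. NPTX2, also called Narp, clusters AMPA receptors on interneurons, and INHBA is the subunit of activin A, a ligand of the TGF-beta family that is induced in the hippocampus by strong activity. Nptx2 (probe A_52_P187058, chromosome 5, 143585185 to 143585244, plus strand, build mm7) stood at -1.80, -1.37, -1.62, -1.07 and -1.19 in control. It stood at -1.14, -0.74, -0.45, -0.80 and -0.71 in E1, and at -1.18, -1.23, -1.20, -1.62 and -1.24 in ELF. E1 replicate 1 lay among the controls and the other 4 E1 arrays were above all of them, while every ELF array was below every E1 array. Nptx2 was 0.64 above control in E1 (SE 0.154, limma adjusted p = 0.0867), 0.12 above control in ELF (adjusted p = 0.661) and differed by -0.52 between ELF and E1 (adjusted p = 0.347). With the replicate number as a block in a fit of the 10 E1 and control arrays, a setting added after the data were seen, Nptx2 passed (limma adjusted p = 0.0285). With the block in the fit of all 15 arrays Nptx2 did not pass (limma adjusted p = 0.112). The pairs behind this block were read from these same data. Nptx2 also passed with quantile normalization, which called 369 of all 26117 genes higher and 77 lower. It passed without control replicate 5 too (limma adjusted p = 0.0288), where 922 were called higher and 197 lower. Within slide 2 the E1 mean of Nptx2 was 0.41 above the control array, against a median of -0.04 over all genes. Within slide 3 its difference between ELF and E1 was -0.66, against a median of -0.18 over all genes.

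Inhba (probe A_51_P239750, chromosome 13, 15394279 to 15394338, plus strand, build mm7) stood at -0.82, -0.62, -0.68, -0.57 and -0.30 in control. It stood at -0.71, -0.15, -0.29, 0.09 and -0.47 in E1, and at -0.68, -0.94, -0.68, -0.67 and -0.73 in ELF. The E1 arrays overlapped both other groups, and 4 of the 5 ELF arrays lay between -0.73 and -0.67. The differences were 0.29 for E1 against control (limma adjusted p = 0.391), -0.14 for ELF against control (adjusted p = 0.555) and -0.43 for ELF against E1 (adjusted p = 0.383). Within slide 3 the ELF arrays differed from the E1 arrays by -0.49, against a median of -0.18 over all genes. Within slide 2 the control array lay among the 3 E1 arrays, whose mean was not above it (difference -0.09). The direction of the E1 difference of Inhba thus depended on which slides were compared.

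**Figure D2:**
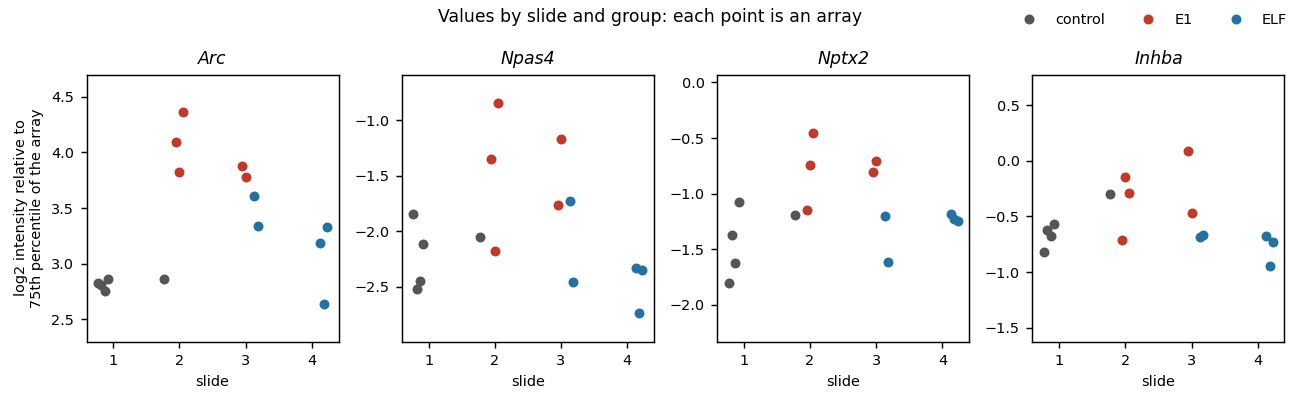
Log2 intensity relative to the 75th percentile (y axis) of Arc, Npas4, Nptx2 and Inhba by slide (x axis), with 1 point per array coloured by group. On slide 2 the 3 E1 arrays of Arc are above the control array, whereas the control array of Inhba, at -0.30, is within the E1 points.

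Nrn1 encodes neuritin, a membrane-anchored protein that promotes neurite growth and stabilises synapses. It was measured by probe A_51_P308844 (chromosome 13, 36143032 to 36143091, minus strand, build mm7). Nrn1 stood at 3.77, 3.96, 3.72, 3.93 and 3.88 in control, at 3.93, 4.22, 4.14, 4.36 and 4.01 in E1, and at 4.05, 4.28, 4.13, 4.03 and 3.95 in ELF. E1 and ELF covered nearly the same range, and the lowest array of each was within the controls. Its difference from control was 0.28 in E1 (95% interval 0.08 to 0.48, limma adjusted p = 0.212) and 0.24 in ELF (0.03 to 0.44, adjusted p = 0.159), and that between ELF and E1 was -0.04 (-0.25 to 0.16, adjusted p = 0.926). Nrn1 therefore had nearly equal ELF and E1 means, unlike Arc, Npas4, Nptx2 and Inhba, although no difference between these genes was tested.

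Homer1 encodes a postsynaptic scaffold that links group I metabotropic glutamate receptors to calcium stores. Neurons also make a short activity-induced form, Homer1a, which ends early in the gene and competes with the long forms. Its 3 probes lie along the gene on chromosome 13, plus strand, build mm7. A_51_P387159 (90367979 to 90368038) and A_51_P387160, which spans an intron from 90368178 to 90404690, lie at the 5′ end and list the same transcript, NM_011982. A_52_P151211 (90466231 to 90466290) lists NM_152134 and lies 61.5 kb further 3′. None of the 3 was taken as specific for Homer1a. The last 30 bases of the probes are given because the groups differed by probe, and capitals mark the start codon.
A_51_P387159: aattccaaatgtttgaacattttggtgtca
A_51_P387160: cattgggcaaaATGggggagcaacctatct
A_52_P151211: ttaactaggcatttcaaaacaggagatacc

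The 3′ probe of Homer1, the brightest of the 3 on average and therefore used for the gene, showed no difference that passed. Because Homer1a ends early in the gene, this probe may not read it, which was not tested. The Homer1 values in the counts and medians of the early genes are from this probe. They therefore do not show whether Homer1a changed. Its values were 1.06, 1.40, 1.21, 1.19 and 1.30 in control, 1.28, 1.37, 1.31, 1.22 and 1.09 in E1, and 1.14, 0.89, 1.32, 1.57 and 1.10 in ELF. The groups overlapped throughout. The differences were 0.02 for E1 against control (95% interval -0.23 to 0.27), -0.03 for ELF against control (-0.28 to 0.22) and -0.05 for ELF against E1 (-0.30 to 0.20), with limma adjusted p of 0.962, 0.897 and 0.925.

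The 5′ probe of Homer1 across the start codon, A_51_P387160, stood lower in ELF. Its values were -1.07, -0.92, -1.01, -1.07 and -1.14 in control, -1.15, -0.96, -0.82, -1.03 and -0.98 in E1, and -1.33, -2.39, -1.14, -1.39 and -1.42 in ELF. All ELF arrays were below all controls, replicate 3 by a narrow margin, and ELF replicate 2 was far below the rest. Of all genes, 2.20% had all ELF arrays below all controls. The difference was -0.49 between ELF and control (95% interval -0.88 to -0.11), which did not pass in the fit over 38457 probes (limma adjusted p = 0.128), where 2.36% of probes were called. The other 5′ probe, A_51_P387159, differed by -0.27 (-0.61 to 0.07), with ELF replicate 2 at -2.94 and the other ELF arrays within the control range of -2.11 to -1.85.

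Within each array, the A_51_P387160 value minus the 3′ probe value of Homer1 averaged -2.27 ± 0.12 for control mice, -2.24 ± 0.15 for E1 mice and -2.74 ± 0.36 for ELF mice (SD, n = 5). ELF differed by -0.46 from control and by -0.49 from E1, each with the smallest p that 5 against 5 arrays allow (two-sided exact permutation test, p = 0.00794, Benjamini-Hochberg adjusted p = 0.0238 over 6 comparisons). Without ELF replicate 2 these differences were -0.33 and -0.36 (exact permutation test, p = 0.0159 for each). All remaining ELF values were still below all control and E1 values, so this test can give no smaller two-sided p for 4 against 5 arrays. For A_51_P387159 they were -0.24 and -0.30, and neither passed after adjustment (exact permutation test, adjusted p = 0.0833 for each). The comparison was chosen after the values had been seen, and the balance of 5′ to 3′ signal in other transcripts was not tested. Within slide 3, ELF against E1 was -0.26 at A_51_P387160 and 0.29 at the 3′ probe, with a median of -0.18 over all genes.

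**Figure D3:**
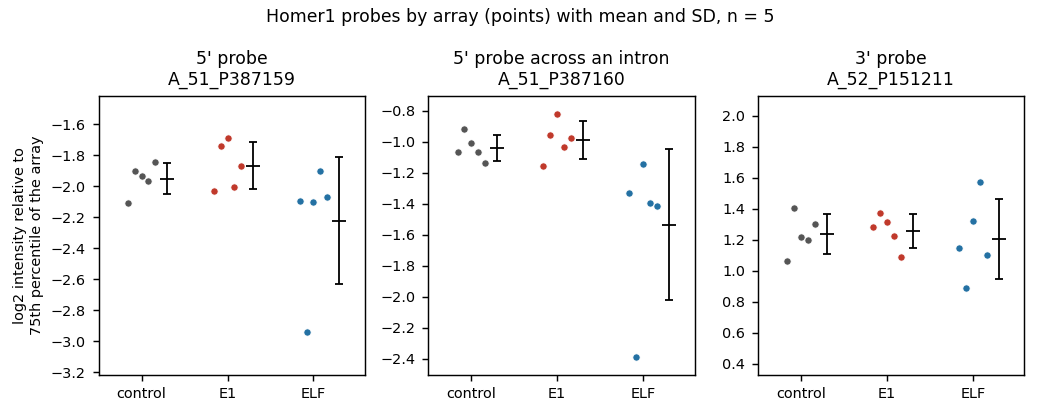
Log2 intensity relative to the 75th percentile (y axis) at the 3 Homer1 probes in control, E1 and ELF (x axis). Points are arrays and bars are the mean and SD (n = 5). At A_51_P387160 the ELF points, from -2.39 to -1.14, lie below every control point, and at the 3′ probe the groups overlap.

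Rgs2, Ptgs2, Plk2 and Plk3 encode enzymes and signalling regulators, and none differed between groups by a margin that passed. Rgs2 encodes a GTPase-activating protein that shortens Gq signalling. Its brighter probe, A_51_P419768 (chromosome 1, 143927444 to 143927503, minus strand, build mm7), gave 2.96, 3.22, 2.72, 2.88 and 2.78 in control. It gave 3.04, 3.21, 2.96, 3.03 and 2.81 in E1, and 2.90, 3.37, 3.16, 3.37 and 3.11 in ELF. The ELF mean of 3.18 was the highest of the 3 groups, with 2 arrays above every control. The difference from control was 0.10 in E1 (limma adjusted p = 0.772) and 0.27 in ELF (95% interval 0.02 to 0.52, adjusted p = 0.188). Its second probe, A_52_P378968, about 1 kb further 3′, gave -0.04 and 0.12, so the 2 probes differ in sign for E1 and share it for ELF.

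Ptgs2 encodes cyclooxygenase-2, the inducible enzyme of prostaglandin synthesis. Probe A_52_P224760 (chromosome 1, 150032900 to 150032959, plus strand, build mm7) ranged from -2.19 to -1.72 in control, -1.92 to -1.68 in E1 and -2.39 to -1.70 in ELF. The E1 arrays lay close together, in the upper part of the control range or just above it. Probe A_51_P254855, which is printed in 10 spots, ranged from -2.52 to -1.87 in control, -2.21 to -1.77 in E1 and -2.45 to -1.91 in ELF. The 2 probes gave differences of 0.18 and 0.20 for E1 against control, 0.00 and 0.09 for ELF against control, and -0.18 and -0.11 for ELF against E1. The 95% intervals for E1 against control were -0.10 to 0.47 and -0.10 to 0.50.

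Plk2 and Plk3 encode polo-like kinases, of which PLK2 weakens synapses of overactive neurons by removing spine proteins such as SPAR. Plk2 (probe A_51_P290576, chromosome 13, 107549252 to 107549311, plus strand, build mm7) stood at 3.08, 3.13, 2.89, 2.92 and 2.94 in control. It stood at 3.13, 3.18, 3.14, 3.03 and 2.66 in E1, and at 3.04, 3.82, 3.30, 3.03 and 2.90 in ELF. A single low E1 array and a single high ELF array, replicates 5 and 2, set most of the spread. The difference from control was 0.04 in E1 (95% interval -0.30 to 0.37, limma adjusted p = 0.950) and 0.22 in ELF (-0.11 to 0.56, adjusted p = 0.400). Without ELF replicate 2 the latter was 0.07.

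Plk3 (probe A_51_P375201, chromosome 4, 116505151 to 116505210, minus strand, build mm7) was nearly constant among control mice, at -0.26, -0.29, -0.24, -0.25 and -0.22. It stood at 0.06, -0.18, -0.07, -0.17 and -0.25 in E1, and at -0.41, -0.06, -0.10, -0.19 and -0.27 in ELF. In E1, 4 arrays were above every control. The difference was 0.13 for E1 against control (95% interval -0.04 to 0.31, limma adjusted p = 0.530), 0.05 for ELF against control (adjusted p = 0.755) and -0.09 for ELF against E1 (adjusted p = 0.795).

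**Figure D4:**
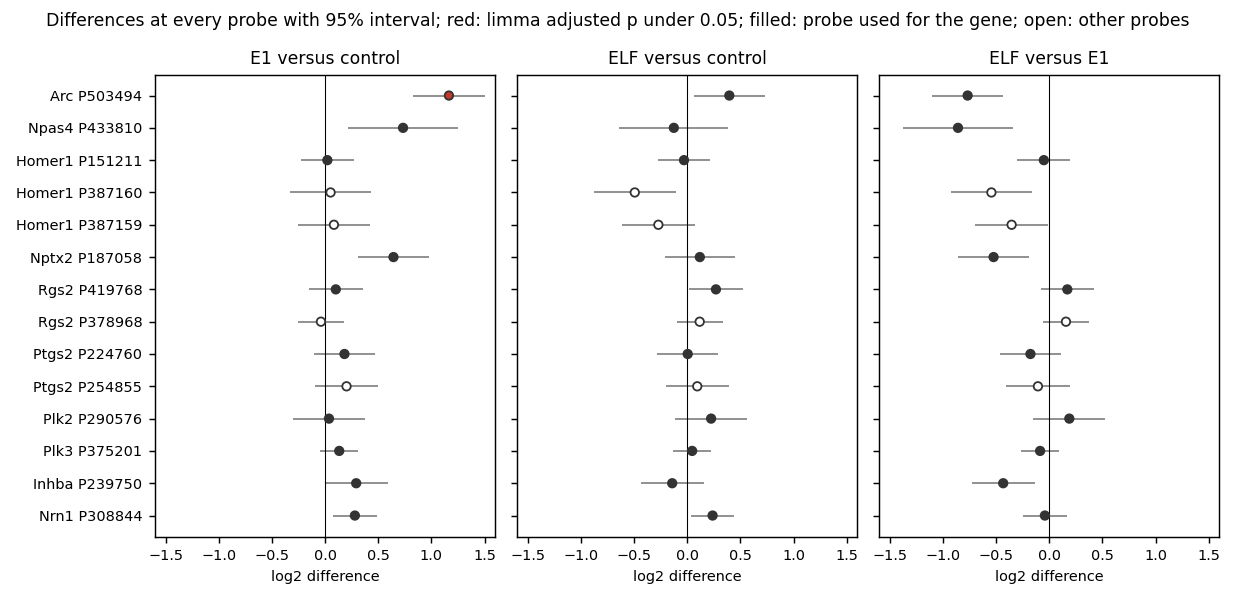
Log2 difference (x axis) with its 95% interval at each of the 14 probes (y axis) for E1 against control, ELF against control and ELF against E1. Red marks a limma adjusted p under 0.05, filled points are the probe used for the gene and open points are the other probes. Arc in E1 against control, at 1.16, is the only red point.

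Counted over the 10 genes, 0 were called between ELF and control with limma, where 2.15% of all genes were called. At an unadjusted p under 0.05 there were 3 of 10, which were Arc, Rgs2 and Nrn1, against 23% of all genes, and 7 of 10 differences were above 0, against 65% of all genes, so both shares were near those of all genes. The median of the 10 was 0.08, against 0.10 over all genes. Between ELF and E1, 0 of the 10 were called with limma, where 0.00766% of all genes were called, and 4 had an unadjusted p under 0.05 (Arc, Npas4, Nptx2 and Inhba), against 9.64% of all genes. Of the 10, 8 were below 0, whereas 60.3% of all genes were above 0, and the median was -0.13, against 0.05 over all genes. This contrast was not kept with slide as a fixed block. There, 4 of the 10 were above 0 with a median of -0.20, against 8476 of 26111 genes with a median of -0.18. The comparisons with control share the control arrays, and those with E1 share the E1 arrays, so their values are not independent.

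Pearson's r between members over the 15 arrays is given as a description, since the arrays share the group differences. Arc and Npas4 correlated at 0.78, Arc and Nptx2 at 0.72, and Nptx2 and Inhba at 0.67. Rgs2 and Plk2 correlated at 0.67, whereas Rgs2 and Npas4 did at -0.38. Nrn1 correlated with Nptx2 (0.61), Rgs2 (0.54) and Plk2 (0.51), and Plk3 about as much with Arc (0.49) as with Plk2 (0.50). After the group means were removed, Arc and Npas4 were at 0.67, Arc and Nptx2 at 0.08, Rgs2 and Plk2 at 0.60, and Plk2 and Plk3 at 0.63. Arc and Npas4 thus varied together among mice of a group, while for Arc and Nptx2 nearly all of the correlation lay between the group means.

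Of 22423 genes detected on all 15 arrays, the 5 with a pattern most like that of Arc were Fos (r = 0.925), Junb (0.923), Nr4a1 (0.923), Egr2 (0.918) and the transcript AK030494 (0.911). The first 4 encode activity-induced transcription factors. Those most like Npas4 were Iars2 (0.853), a mitochondrial isoleucyl-tRNA synthetase, Kcnab3 (0.835), a potassium channel beta subunit, and TC1481003, AK033165 and A930041G11Rik (0.807 to 0.805). None of the 5 passed the test between E1 and control, and their likeness to Npas4 was weaker than that of the 5 genes to Arc.

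Beside the 10 genes, 52 of 54 other activity-regulated genes were measured. This list was also chosen with earlier results of these data known, so its shares against all genes are not an independent test. In E1 against control 8 were called higher by limma and 0 lower, beside 35 higher and 14 lower of all 26117 genes. Of the 52, 41 were above 0 (78.8%, against 58.8% of all genes). Their median was 0.24, close to the 0.23 of the 10 genes. With slide as a fixed or a random block, 0 of the 52 were called by limma, and the random block called 0 of all genes. With the fixed block, which rests on the 1 control array of slide 2, the median of the 52 was 0.21. Of these, 39 were above 0, against 10619 of 26111 genes with a median of -0.04. Without a block, 25 of the 52 had an unadjusted limma p under 0.05 (48.1%, against 13.1% of all genes). Those called higher were the transcription factor genes Fos, Egr2, Junb, Nr4a1, Ier2 and Csrnp1, named Axud1 on the array, the phosphatase gene Dusp1 and the pseudokinase gene Trib1. Fos rose by 1.47 (limma adjusted p = 0.0351) and Egr2 by 1.22 (adjusted p = 0.0319), and the other 6 rose by 0.78 (Csrnp1) to 0.88 (Junb). Pairs of E1 and control replicate numbers were read from these same data. With the replicate number as a block in the fit of 15 arrays, 2 of the 52 were called, while Arc still passed (limma adjusted p = 0.038). In the added fit of the 10 arrays with the block 23 were called, where 2456 of 26117 genes were called higher and 745 lower. Leaving out 1 array gave 2 (without control replicate 2) to 15 (without control replicate 5) calls. Over all 26117 genes, the former fit called 5 higher and 3 lower, and the latter 922 higher and 197 lower.

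In ELF against control, 2 of the 52 were called higher by limma and 1 lower, beside 389 higher and 173 lower of all 26117 genes. Of the 52, 45 were above 0 (86.5%, against 65% of all genes). At an unadjusted p under 0.05 there were 15 (28.8%, against 23% of all genes). Gadd45g, a stress and demethylation factor, rose by 0.55 (limma adjusted p = 0.0297), Dusp1 rose by 0.45 (adjusted p = 0.049) and the transcription factor gene Klf4 fell by 0.89 (adjusted p = 0.0418). Nr4a3, Fos and Egr2 were 0.73, 0.67 and 0.63 above control and did not pass. With the replicate block, 0 of the 52 were called by limma, and leaving out 1 array gave 0 (without any 1 of control replicates 1 to 4) to 9 calls (without ELF replicate 4). Without ELF replicate 4, 4451 of all 26117 genes were called higher and 713 lower. Between ELF and E1, 0 of the 52 were called by limma, although 21 had an unadjusted p under 0.05 (40.4%, against 9.64% of all genes), and the median was -0.11. The differences with the largest size were those of Fos (-0.80), Trib1 (-0.71), Csrnp1 (-0.59), Egr2 (-0.59) and Scg2 (-0.58), all negative, as were those of Arc, Npas4 and Nptx2. With slide as a fixed block the median of the 52 between ELF and E1 was -0.10, against -0.18 over all genes.

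Genes whose proteins bind, modify or receive signals from the 10 gene products were measured for 77 of 79 names. None was called in any of the 3 comparisons with limma, and 11, 19 and 11 had an unadjusted p under 0.05 in E1 against control, ELF against control and ELF against E1. These were 14.3%, 24.7% and 14.3% of the 77, against 13.1%, 23% and 9.64% of all genes. Their medians were 0.02, 0.06 and 0.02. The largest E1 difference was that of Fst, which encodes follistatin, a secreted protein that binds and neutralises activin (0.82 above control, limma adjusted p = 0.0819; -0.76 between ELF and E1, adjusted p = 0.264). Nptx1, a pentraxin that assembles with NPTX2, differed from control by -0.52 in E1 and by -0.52 in ELF (limma adjusted p = 0.307 and 0.168). Rgs16, a relative of Rgs2, was 0.68 above control in E1 (adjusted p = 0.0613). The receptor gene Ptger4 for prostaglandin E2 was 0.55 above control and the activin-binding Fstl3 0.48 above control, and neither passed. In ELF against control the largest differences were -0.72 for Ptgis, the prostacyclin synthase gene, 0.59 for the insulin receptor gene Insr, 0.51 for the Nrn1 relative Nrn1l (named G630049C14Rik on the array) and 0.49 for Fstl3, and none passed. Between ELF and E1, Rgs10 was at 0.59, Ptger4 at -0.53, Dlg4 (Dlgh4 on the array) at -0.41 and the activin B subunit gene Inhbb at 0.38, which did not pass either. Leaving out 1 array gave up to 3 partner genes in E1 (without control replicate 5) and up to 7 in ELF against control (without ELF replicate 4). Over all 26117 genes, those fits called 922 higher and 197 lower in E1 and 4451 higher and 713 lower in ELF against control.

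**Figure D5:**
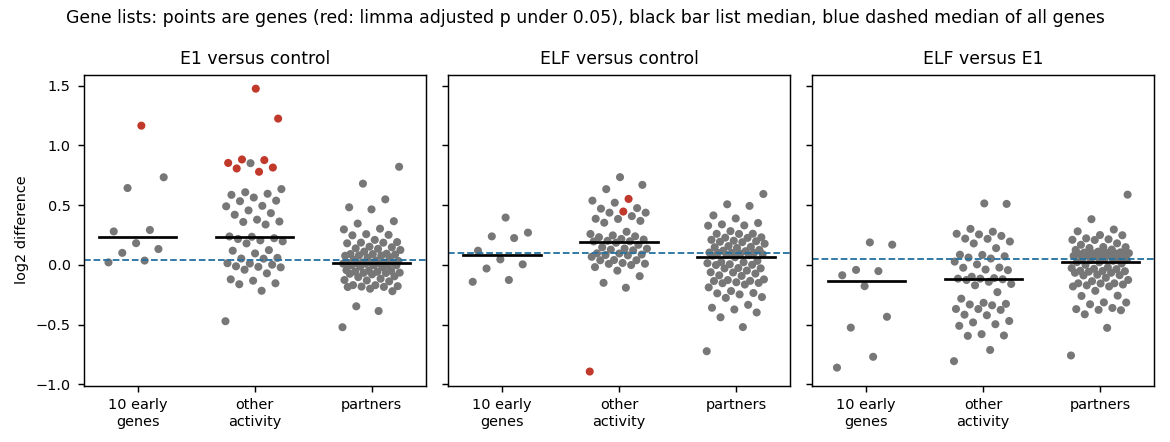
Log2 difference (y axis) of the 10 early genes, the 52 other activity-regulated genes and the 77 partner genes (x axis) in 3 comparisons. Points are genes, red marks a limma adjusted p under 0.05, black bars are list medians and the dashed line is the median of all genes. In E1 against control the first 2 medians are 0.23 and 0.24 and that of the partners is 0.02.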

How the data were processed

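Hippocampal RNA of 15 mice was measured on 15 arrays, and groups were taken from the sample labels. Per the file headers, Agilent Feature Extraction 9.5.3.1 gave mean, background and processed intensity, flags and probe coordinates on mm7. The submitters' processing notes also name limma. A value table deposited by the authors gives log2 values with medians of 8.68 to 8.92, which followed log2 of the mean intensity (r at least 0.996 on each array). How it was normalized is not stated there, and it was used as an alternative only.

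Control spots (1639 of 45018) and outlier spots were left out. Log2 of the processed intensity minus the array's 75th percentile was averaged over the spots of a probe. A probe was kept if well above background on at least 5 arrays (38457 probes), and the probe with the highest mean stood for a gene (26117 genes). Groups were compared over all 15 arrays without covariates with limma 3.58.1 in R 4.3.3 (lmFit, eBayes, two-sided) and Benjamini-Hochberg adjustment at 0.05. Second probes were taken from the same fit over all probes. Exact permutation tests used SciPy 1.17.1. The fit was tested on simulated data. The number of arrays limits the precision. Slides were read from the array barcodes.

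The 10 genes and the lists of related genes were chosen with earlier results of these data known. The named genes were all 10 members, every listed gene past the threshold, the 5 with the largest difference per list and comparison, and the 5 most like Arc and Npas4. Same-numbered E1 and control arrays deviated together from their group means (r from 0.142 to 0.299 in 5 of 5 pairs). Differently numbered arrays were not compared in this way, so these r cannot show that the numbers mark pairs. The replicate numbers, which are those of the sample titles, were used as pairs in alternative fits only. The titles give replicate numbers and no pairing of mice. The pairs were read from these same data, so fits with the replicate block are not an independent test. Other numbers stand in the source names of 3 of the 5 E1 samples, so the values with the replicate block rest on the titles and this correlation. Same-numbered ELF arrays did not all deviate together with those of control or E1 (r from -0.435 to 0.311). Alternatives were background correction, normalization, filters, probe choice, blocks and each array left out. Promoters were those of RefSeq for GRCm38.p6, and no genome sequence was used here.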

Additional observations from a re-analysis of the deposited data

Results flagged for a closer look

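Each probe was checked in each group of 5 arrays for a lowest or highest value whose gap to the nearest array exceeded 0.71 of the whole range (Dixon's test). Of 42 groups, 5 held such an array, where chance gives about 1 in 20. ELF replicate 2 was the lowest at both 5′ probes of Homer1, with -2.39 at A_51_P387160 and -2.94 at A_51_P387159, and for Inhba, with -0.94. ELF replicate 4 was the lowest for Nptx2, with -1.62. E1 replicate 5 was the lowest for Plk2, with 2.66.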

How the results depend on the processing

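Among the 10 genes, Arc was called between E1 and control under every alternative except slide as a fixed or random block, which gave a count of 0. Quantile normalization gave 2 members, as did the replicate block in a fit of 2 groups; leaving out 1 array gave 1 to 2, with Nptx2 as the second member without control replicate 5. No member was called in the other comparisons under any alternative.

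For the other activity-regulated genes, the count in E1 against control was 14 with quantile normalization, 5 with the mean of a gene's probes, 2 with the replicate block in 15 arrays, 23 with the replicate block in the 2 groups compared, 0 with slide as either block and 2 to 15 with 1 array left out. In ELF against control it was 1 with median centring, 0 with the 2 groups alone, with either replicate block and with slide as either block, and 0 to 9 with 1 array left out. In ELF against E1 it was 2 with quantile normalization and in the authors' table, 1 with detection on all 15 arrays, 10 with slide as a fixed block and 0 to 1 with 1 array left out. For partner genes in E1 against control it was 1 with quantile normalization, median centring or the authors' table, 7 with the replicate block in 2 groups and 0 to 3 with 1 array left out. In ELF against control it was 1 with quantile normalization, 2 with median centring, the authors' table or slide as a fixed block, and 0 to 7 with 1 array left out, and in ELF against E1 it was 12 with slide as a fixed block. The larger counts stand beside many calls over all genes. With slide as a fixed block, 693 of 26111 genes were called higher and 4420 lower in ELF against E1. Without ELF replicate 4, 4451 of 26117 were called higher and 713 lower in ELF against control. The replicate block in 2 groups called 2456 of 26117 higher and 745 lower in E1 against control.

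Small differences changed sign. In E1 against control, Rgs2 was at -0.059 with normexp, Homer1 at -0.023 and Plk2 at -0.0073 with median centring, Homer1 at -0.016 and Plk2 at -0.00032 in the authors' table, Inhba at -0.088 with slide as a fixed block and Homer1 at -0.037 with slide as a random block. In ELF against control, Homer1 was at 0.021 with normexp, and at 0.31 and 0.084 with slide as a fixed and a random block. Ptgs2 was at -0.082 with quantile normalization, -0.097 with median centring and -0.086 in the authors' table, Plk3 at -0.055 and -0.046 in the latter pair, and Nptx2 at -0.25 and -0.0067 with slide as a fixed and a random block. In ELF against E1, Homer1 was at 0.29 and Plk3 at 0.064 with slide as a fixed block, and Homer1 at 0.12 with slide as a random block. With 1 array left out, Homer1 ranged from -0.022 to 0.063 in E1 and from -0.12 to 0.049 in ELF against control, and from -0.14 to 0.028 in ELF against E1. Plk2 ranged from -0.00077 to 0.13 in E1 and Ptgs2 from -0.068 to 0.11 in ELF against control, and Nrn1 from -0.092 to 0.016 in ELF against E1. The cause of these changes was not tested.

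Over all genes, median centring moved the median difference of ELF against control from 0.10 to -0.0013. The authors' table called 782 genes higher and 806 lower there, against 389 and 173, and quantile normalization called 369 higher and 77 lower in E1 against control, against 35 and 14. The number of calls in E1 against control also rested on single arrays, with 922 higher and 197 lower without control replicate 5 and 5 higher and 3 lower without control replicate 2. The replicate block gave 4 higher and 5 lower in 15 arrays and 2456 higher and 745 lower in the 2 groups compared. In ELF against E1, slide as a fixed block called 693 higher and 4420 lower, against 2 and 0. In ELF against control, 4451 were higher and 713 lower without ELF replicate 4, and 0 were called by limma without control replicate 2 or 3. The fixed slide block rests on 4 arrays on each of slides 2 and 3, of which slide 2 held 1 control.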
